A study of Rattus norvegicus with 10 samples.

Results

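Laminins, nidogens and perlecan, the proteins that together with collagen IV build the basement membrane around the seminiferous tubule, were examined in testes of rat pups on postnatal day 6. Of the 10 genes Lama1, Lama2, Lama4, Lama5, Lamb1, Lamb2, Lamc1, Nid1, Nid2 and Hspg2, members were taken as the array probes whose RefSeq transcript belongs to the gene. This matched 7 probes of 5 genes, namely Lama1, Lama5 and Lamb2 with 1 probe each and Lamc1 and Nid2 with 2 each, among 15154 genes with a matched probe in all. Lama2, Lama4, Lamb1, Nid1 and Hspg2 had no probe matched in this way and were not analysed here, so perlecan and nidogen 1 have no value. The pups came from Brown Norway males crossed with Sprague Dawley females, and their fathers had been given either BEP or saline over 9 weeks and had then had 9 weeks to recover. BEP usually stands for bleomycin, etoposide and cisplatin, although the labels do not name the drugs. The codes of the fathers carry a C on 5 arrays and a T on 5. C is read as saline and T as BEP, which no label states. The pups pooled on each array, if any were, are not stated either. Nothing states that the arrays of a group came from different litters beyond their different father codes, so the p-values measure the spread between these arrays.

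A laminin is a cross-shaped trimer of an alpha, a beta and a gamma chain, which is secreted and polymerises on the cell surface. Nidogens and perlecan tie the laminin sheet to the collagen IV network, and integrins and dystroglycan anchor it to the cell. In the testis, Sertoli cells inside the tubule and peritubular myoid cells outside it deposit this sheet together, and blood vessels, smooth muscle and nerve sheaths have basement membranes of their own. Levels from whole testis therefore sum over several sources, and fewer cells of a type cannot be told apart from less RNA per cell.

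Promoter sequences from RefSeq (GRCr8 build) place 3 of the measured genes and show what lies directly before their annotated starts. Each line gives the 250 bases upstream of the start, on the strand of the gene, with GC boxes (GGGCGG or its reverse complement CCGCCC) in capitals. The Lamc1 window is chr13:68051987-68052236 on the minus strand, the Lama5 window chr3:187695975-187696224 on the minus strand, and the Lama1 window chr9:115139298-115139547 on the plus strand.
Lamc1: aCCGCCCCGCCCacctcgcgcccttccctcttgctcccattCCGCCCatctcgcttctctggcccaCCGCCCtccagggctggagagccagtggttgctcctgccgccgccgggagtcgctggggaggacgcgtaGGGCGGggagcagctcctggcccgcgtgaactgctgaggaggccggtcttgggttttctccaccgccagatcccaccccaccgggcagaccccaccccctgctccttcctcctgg
Lama5: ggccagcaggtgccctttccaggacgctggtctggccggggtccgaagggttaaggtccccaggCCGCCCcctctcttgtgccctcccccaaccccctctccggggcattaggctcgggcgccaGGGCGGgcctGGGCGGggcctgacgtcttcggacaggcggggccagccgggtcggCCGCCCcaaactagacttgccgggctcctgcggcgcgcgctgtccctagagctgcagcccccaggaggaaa
Lama1: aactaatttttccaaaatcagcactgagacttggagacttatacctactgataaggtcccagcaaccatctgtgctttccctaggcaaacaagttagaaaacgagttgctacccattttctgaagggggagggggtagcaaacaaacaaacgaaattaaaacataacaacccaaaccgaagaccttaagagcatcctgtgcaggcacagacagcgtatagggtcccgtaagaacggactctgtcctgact
Lamc1, whose gamma chain is shared by most laminin trimers, held 5 GC boxes in this window, of which a pair overlaps by a base, and its GC content was 71.2%. Lama5 held 4 GC boxes at a GC content of 72.8%. The Lama1 window held 0 and had a GC content of 44.8%, against a median of 51.2% over all 33469 promoters. A GC box was present in 30.5% of all promoters. None of the 3 windows held a CCAAT box (CCAAT or ATTGG, 34.0% of all promoters) or a TATA box (TATAAA or TTTATA, 12.9%) on either strand. The 3 genes thus differ in these letters, and the arrays do not measure what binds there.

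All 7 probes were well above background on all 10 arrays. Values below are log2 levels relative to the 75th percentile of the signals of the same array, which stood between 1525 and 2686 units, so a level of 0 is that percentile. Levels of different probes are not compared, because each probe has its own binding strength. Arrays lay on 2 slides, slide 1 with C replicates 1 to 3 and T replicates 1 and 2, and slide 2 with C replicates 4 and 5 and T replicates 3 to 5. Each array had 70.4% to 74.8% of its probes well above background, and 5 arrays per group set the precision. Of the markers of the labelled tissue, all 8 of germ cells, all 8 of myoid and smooth muscle cells, 9 of 10 of Sertoli cells and 6 of 7 of Leydig cells were measured. Sox9 of the Sertoli cell list had no matched probe, and the Leydig cell receptor gene Lhcgr was well above background on 0 arrays.

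Alpha chains give a laminin trimer its receptor binding. Lama1, the alpha chain best known from embryonic epithelia and the seminiferous tubule, did not separate the groups. On its probe (A_43_P19193) C replicates 1 to 5 stood at -0.51, -0.84, -1.09, -0.71 and -0.98, and T replicates 1 to 5 at -0.91, -0.71, -0.77, -1.06 and -0.70. The highest array, C replicate 1, and the lowest, C replicate 3, both belonged to the C group and enclosed all T arrays. The means were -0.83 ± 0.23 (SD, n = 5) for C and -0.83 ± 0.15 for T, a difference T minus C of -0.0032 ± 0.12 (SE; limma, Benjamini-Hochberg adjusted p = 0.999).

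Lama5, the alpha chain most widespread in adult epithelia and vessels, had the largest difference of the 7 probes, and it lay within the spread of the arrays. Its probe (A_44_P429453) read -1.59, -2.13, -2.11, -1.58 and -1.72 on C replicates 1 to 5 and -1.83, -1.95, -1.31, -1.54 and -1.70 on the T arrays in the same order. C replicates 2 and 3 and T replicate 2 were lowest, all on slide 1, and T replicate 3 on slide 2 was highest. T minus C was 0.16 ± 0.15 (limma, adjusted p = 0.999), with a 95% confidence interval from -0.18 to 0.49. With slide as a block the difference was 0.089, within slide 1 it was 0.046 and within slide 2 it was 0.13.

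The level of Lama5 also differed between the slides, without passing the adjusted test. Arrays of slide 2 stood 0.34 ± 0.12 above those of slide 1 with the group in the model (unadjusted p = 0.0178, adjusted p = 0.112, limma). Among all probes, 9.79% passed an adjusted p of 0.05 for slide 2 minus slide 1, and 0 of the 7 member probes did. The other 6 probes differed between slides by -0.13 to 0.11, with adjusted p-values from 0.525 to 0.925. The father codes of C replicate 5 and T replicates 4 and 5, all on slide 2, end in 2R. Those of the other arrays, on both slides, end in 1R, and no label states what this ending means. What else differed between the slides was not tested.

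Beta and gamma chains complete the trimer. Lamb2, the beta chain known from the kidney filter and the neuromuscular synapse, differed between the groups by less than the spread of either. The 5 C arrays of its probe (A_44_P550228) read 0.36, 0.42, 0.027, 0.55 and 0.44, and the 5 T arrays 0.41, 0.35, 0.51, 0.24 and 0.39. C replicate 3 was the lowest of all, and every T array lay between it and C replicate 4. T minus C was 0.021 ± 0.097 (limma, adjusted p = 0.999). Without C replicate 3 it was -0.061, and it was 0.11 within slide 1 and -0.12 within slide 2. An interaction of group and slide gave -0.23 ± 0.18 (limma, adjusted p = 0.992).

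Lamc1, the gamma chain, was measured in the most spots, because 1 of its probes (A_42_P592615) is printed in 10 spots on each array. Its C arrays read 2.30, 2.29, 2.24, 2.39 and 2.19 and its T arrays 2.22, 2.38, 2.47, 2.28 and 2.46. T replicates 3 and 5 stood above all C arrays, while T replicates 1, 2 and 4 stood within the C range, so the groups overlapped. The means were 2.28 ± 0.077 (SD, n = 5) and 2.36 ± 0.11, and T minus C was 0.080 ± 0.069 (limma, adjusted p = 0.999). Within slide 1 the difference was 0.024 and within slide 2 it was 0.11. Spots of this probe within an array had an SD between 0.017 and 0.054 with a median of 0.030, against 0.10 between arrays. The spread between arrays was thus larger than the scatter of single spots, which share 1 RNA sample per array.

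The second Lamc1 probe (A_44_P456792), printed in 2 spots, pointed the other way at a wider error. T minus C was -0.048 ± 0.12 (limma, adjusted p = 0.999), with levels from -3.14 to -2.69 in C and from -3.28 to -2.74 in T. Over the 10 arrays both Lamc1 probes correlated at a Pearson's r of 0.24 (permutation p = 0.487) and a Spearman's rho of 0.31 (permutation p = 0.385). Without the 2 arrays farthest from the median r was 0.32, and after removal of slide and group means it was 0.51. The mean of both Lamc1 probes gave a T minus C of 0.016.

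Nid2 encodes nidogen 2, a linker between laminin and collagen IV. Its probe of 2 spots (A_44_P456444) gave 1.92, 1.78, 1.69, 1.69 and 1.63 on the C arrays and 1.80, 1.79, 1.78, 1.88 and 1.72 on the T arrays, each in the order of the replicates. C replicate 1 was the highest array, and C replicates 3, 4 and 5 were the lowest 3. The means were 1.74 ± 0.11 (SD, n = 5) in C and 1.79 ± 0.058 in T, and T minus C was 0.054 ± 0.067 (limma, adjusted p = 0.999). It was 0.00021 within slide 1 and 0.14 within slide 2. The second probe (A_43_P20178), printed in 1 spot, gave -0.044 ± 0.11 (limma, adjusted p = 0.999) with levels from -4.66 to -4.20 in C and from -4.73 to -4.34 in T. The 2 Nid2 probes correlated at an r of 0.47 (permutation p = 0.169) and a rho of 0.30 (permutation p = 0.407), with an r of 0.30 without the 2 arrays farthest from the median and 0.65 after removal of slide and group means. The mean of both probes gave a T minus C of 0.0048.

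**Figure D1:**
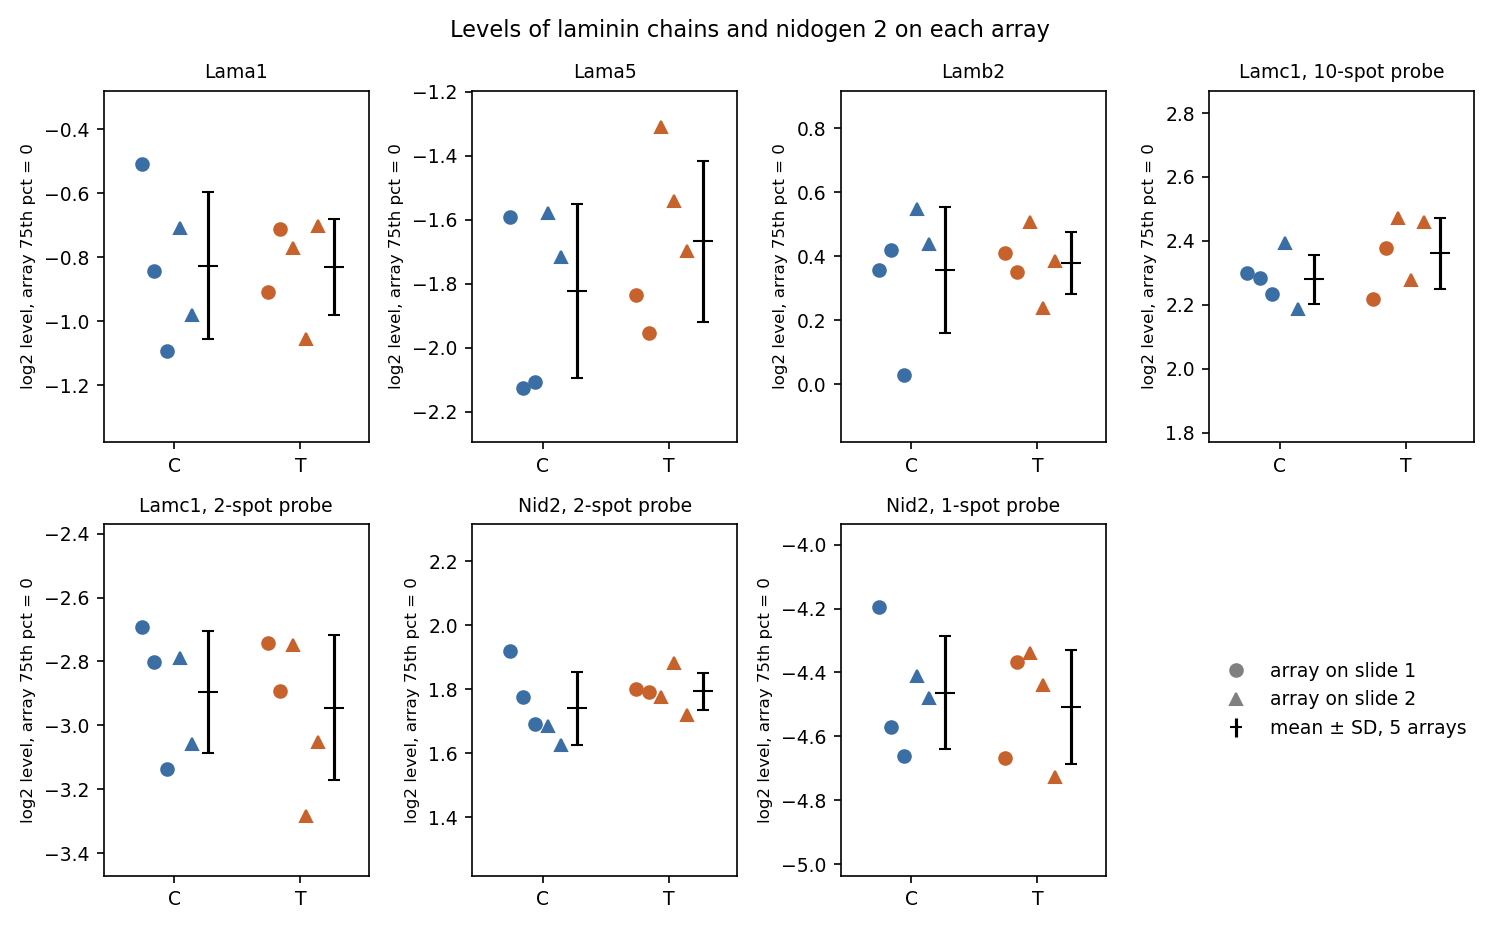
Level of each of the 7 probes on each array (y axis, log2 relative to the 75th percentile of the array; every panel spans the same range of log2 units) in the C and T groups (x axis). Points are arrays, circles on slide 1 and triangles on slide 2, and bars are the mean ± SD of 5 arrays; the groups overlap in every panel.

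Across the 5 genes no difference between the groups passed the test. Of the 7 probes, 0 had an adjusted p under 0.05, as did 0% of all 21892 probes tested by limma, whose smallest adjusted p rounds to 0.999. Without adjustment 0 of 7 were under 0.05, against 869 of all probes (3.97%), and the smallest unadjusted p of a member was that of the Lamc1 probe with 10 spots, at 0.271 (limma, adjusted p = 0.999). The groups did not overlap on 0 of the 7 probes, against 0.722% of all probes with a value on all arrays. With 1 probe per gene, 4 of the 5 genes stood higher in T and 1 lower, with a median difference of 0.054. Over all probes the median was -0.020 and 41.5% were higher. The count of genes depends on the probe chosen, because the second probes of Lamc1 and Nid2 were lower in T, at -0.048 and -0.044. The direction of Lama1 turned under quantile normalization, normexp and the authors' own values, and that of Lamb2 under normexp. The data limit how large a difference could have been missed. The 95% confidence interval reached 0.20 to 0.49 on the log2 scale at its wider end, so a 1.5-fold difference lay outside the interval of each of the 7 probes. The widest interval was that of Lama5, which reached 1.41-fold, and the narrowest was that of the Nid2 probe with 2 spots, which reached 1.15-fold.

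**Figure D2:**
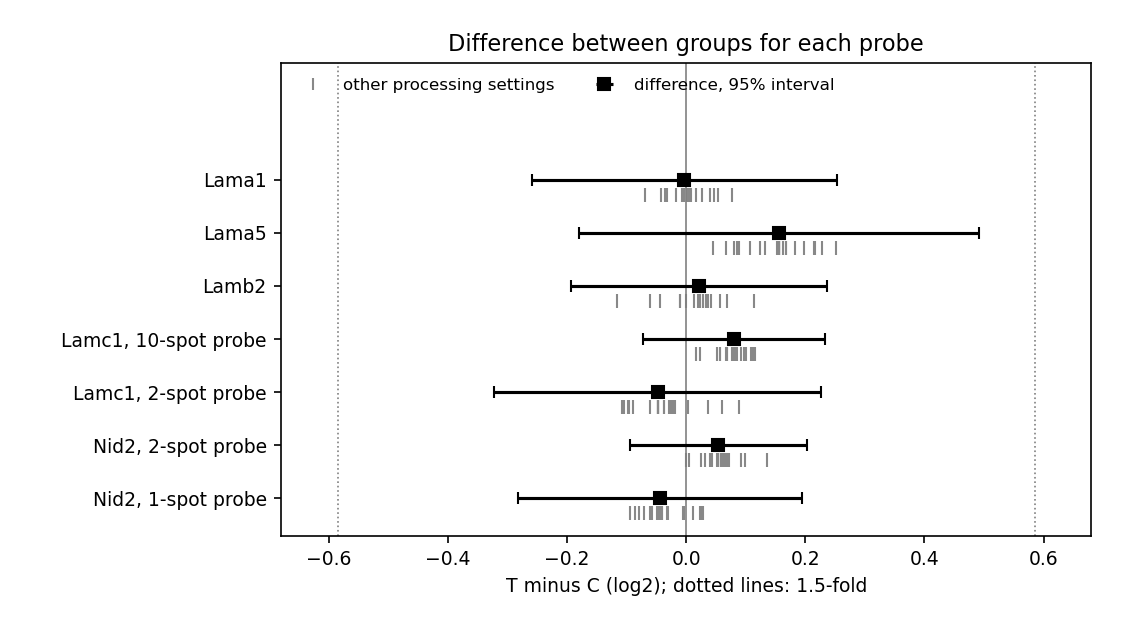
Difference T minus C for the 7 probes (x axis, log2; rows are probes). Squares with bars are the limma estimate and its 95% confidence interval, grey ticks are the estimates under other processing settings, and dotted lines mark 1.5-fold; every interval spans 0 and ends inside the dotted lines.

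The spread between arrays depended on the probe as well as the gene. Over the 10 arrays the 2-spot Nid2 probe had an SD of 0.090 and a range of 1.23-fold, and the 10-spot Lamc1 probe an SD of 0.10 and a range of 1.22-fold. Of all tested probes, 13.9% had a smaller SD than the former and 18.9% a smaller SD than the latter. The second probes of the same genes varied more, with an SD of 0.17 and a range of 1.45-fold for Nid2 and 0.20 and 1.51-fold for Lamc1, so neither gene can be called the steadier from these data. Lamb2 spanned 1.44-fold and Lama1 1.5-fold. Lama5 spanned 1.76-fold, with an SD of 0.26 that exceeded that of 77.2% of probes. SDs were not compared at equal signal, and weak signals are noisier on arrays in general.

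On 2 arrays all 5 genes deviated in the same direction. C replicate 3 was below the mean of the 10 arrays for all 5 genes, with a median deviation of -0.27, where the median over all probes on that array was -0.041. T replicate 3 was above the mean for all 5 genes, with a median of 0.14 against -0.019 over all probes, though Nid2 was above by only 0.0077. The other arrays were mixed, between 2 and 4 genes above their mean. Among them C replicate 1, with 3 genes above, had a median of 0.15 against 0.090 over all probes.

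**Figure D3:**
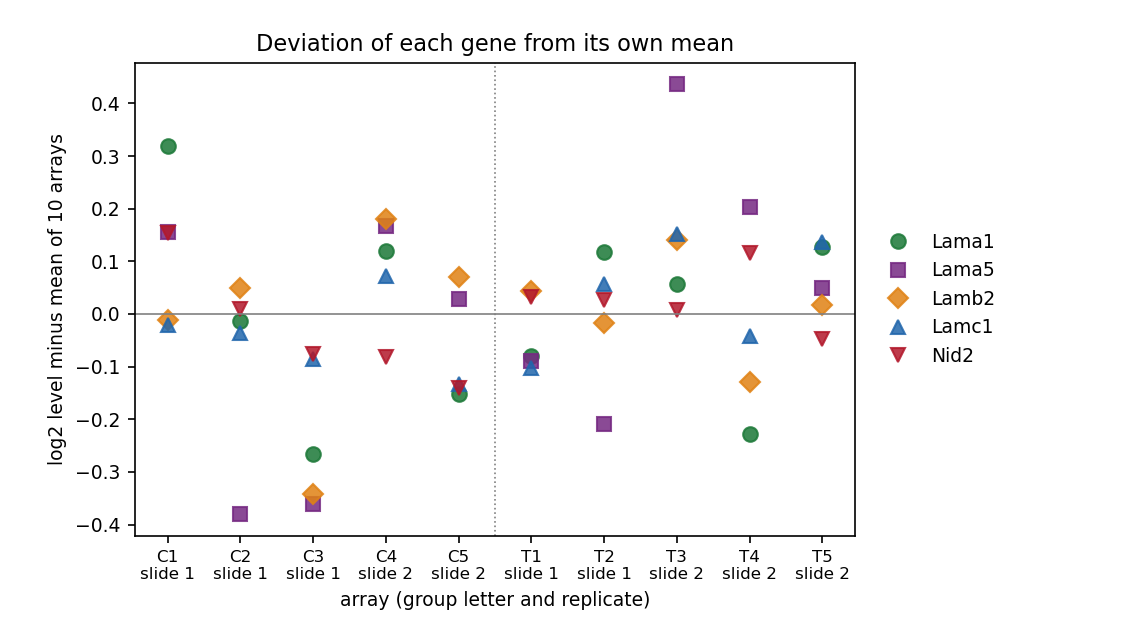
Level of each gene on each array minus its mean over the 10 arrays (y axis, log2; x axis, arrays by group and replicate, with their slide). One symbol stands for 1 gene with its probe of the highest mean; all 5 genes lie below 0 on C replicate 3 and above 0 on T replicate 3.

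Whether chains and linkers of the sheet varied together was examined by correlating the levels of the 10 pairs of the 5 genes over the 10 arrays, of which 8 pairs were added after the data were seen. The largest Pearson's r was that of Lamc1 and Lama1, at 0.58 (permutation p = 0.0785, adjusted over the 10 pairs p = 0.414), with a Spearman's rho of 0.71 (permutation p = 0.0265, adjusted p = 0.265). It was 0.62 without the 2 arrays farthest from the median and 0.73 after removal of slide and group means. Lamc1 and Lama5 gave an r of 0.48 (permutation p = 0.166, adjusted p = 0.414) and a rho of 0.47 (permutation p = 0.18, adjusted p = 0.64), which fell to 0.17 for r without the 2 farthest arrays. Lama1 and Lamb2 gave 0.54 (permutation p = 0.105, adjusted p = 0.414) with a rho of 0.31 (permutation p = 0.386), and 0.52 without the 2 farthest arrays. Of the 10 pairs, 9 had a positive r, with a median of 0.38 and a lowest value of -0.11 for Lamb2 and Nid2, and 0 passed the adjusted threshold. Without the 2 farthest arrays, Lama1 with Lama5 went from 0.31 to -0.044, Lama1 with Nid2 from 0.33 to -0.27, and Lamb2 with Nid2 to -0.52. After removal of slide and group means these pairs gave 0.55, 0.35 and 0.029, Lama1 with Lamb2 0.63 and Lamc1 with Lama5 0.23. The 2 arrays left out were those farthest from the median of the gene named first in a pair. Each slide holds 5 arrays, too few for a correlation within a slide.

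The genes whose levels followed the 10-spot Lamc1 probe most closely over the 10 arrays were not laminins. The ranking holds for this probe only, since the second Lamc1 probe correlated with it at an r of 0.24. Among 11554 other named genes with a tested probe, Kcnh1, a voltage-gated potassium channel, had an r of 0.92, Dusp3, a dual-specificity phosphatase, 0.91 and Rreb1, a zinc finger transcription factor, 0.90. These are the top of a ranked list, so their values carry no test. After removal of slide and group means they were 0.89, 0.93 and 0.90. Without the 2 arrays farthest from the median of Lamc1 they were 0.91, 0.78 and 0.93. Lama1 ranked at position 558, Lama5 at 1119, Lamb2 at 1539 and Nid2 at 5600. Lama2, Lama4, Lamb1, Nid1 and Hspg2 had no matched probe and could not be ranked.

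The wider machinery of the basement membrane was examined through 7 lists with 92 genes, of which 67 had a tested probe. Of these, 39 were higher and 28 lower in T, 0 passed an adjusted p of 0.05, and 2.99% had an unadjusted p under 0.05, against the 3.97% of all probes. Their median difference was 0.016. Both measured collagen IV chains stood higher, Col4a1 at 0.12 ± 0.063 (limma, unadjusted p = 0.0905, adjusted p = 0.999) and Col4a4 at 0.15 ± 0.11. Col4a1 encodes a chain of the collagen that laminin is tied to. It read 3.61, 3.76, 3.71, 3.86 and 3.70 on the C arrays and 3.85, 3.84, 3.91, 3.73 and 3.87 on the T arrays, and C replicates 2 and 4 and T replicates 1, 2 and 4 lay in the range of the other group. A second Col4a1 probe gave -0.12 ± 0.14.

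Timp3 and Tinagl1 had the smallest p-values of these lists. Timp3 encodes an inhibitor of metalloproteinases that binds to the extracellular matrix. Its levels were -2.38, -2.52, -2.36, -2.33 and -2.48 on the C arrays and -2.79, -2.74, -2.50, -2.69 and -2.62 on the T arrays. Only T replicate 3 and C replicate 2 overlapped. T minus C was -0.25 ± 0.071 (limma, unadjusted p = 0.00499, adjusted p = 0.999), -0.35 within slide 1 and -0.19 within slide 2. Tinagl1, a secreted protein of basement membranes, was at 0.20 ± 0.089 (limma, unadjusted p = 0.0443, adjusted p = 0.999), and 0.11 within slide 1 and 0.23 within slide 2. T replicates 3 and 5, at 0.92 and 0.91, were its highest arrays, and C replicate 3, at 0.41, was its lowest.

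The remaining lists were spread around 0. Of 19 laminin receptors and partners, 8 were higher and 11 lower with a median of -0.016, and the smallest p was that of Sgcd, a sarcoglycan of the dystroglycan complex, at -0.22 ± 0.13. Of 10 enzymes and factors that put sugars on dystroglycan, 4 were higher and 6 lower (median -0.021). Of 10 genes of matrix folding and crosslinking 7 were higher and 3 lower (median 0.017), with P4hb, a subunit of prolyl hydroxylase, at -0.12 ± 0.076. Of 14 proteases and inhibitors 11 were higher and 3 lower (median 0.024). Plau, the urokinase plasminogen activator, singled out after its value was seen, stood at 0.24 ± 0.11. Of 11 other basement membrane proteins 7 were higher and 4 lower (median 0.034). Lamc3, a laminin chain outside the 10 genes, stood at -0.12 ± 0.12, and its second probe at -0.15 ± 0.18.

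**Figure D4:**
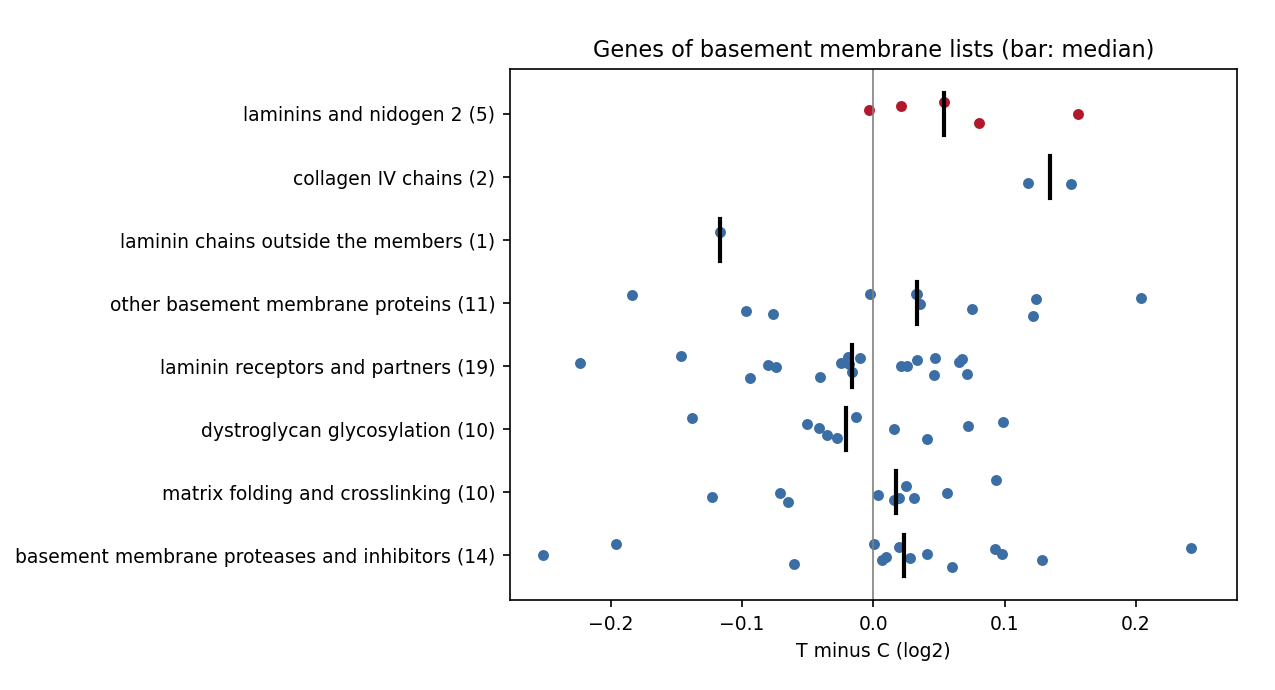
T minus C (x axis, log2) of every tested gene of the basement membrane lists, 1 point per gene, with the number of genes in brackets and the median as a bar; heights within a row are spread only to part the points. The top row holds the 5 measured members. Lists of 10 or more genes lie on both sides of 0, with Timp3 at -0.25 at the lower end and Plau at 0.24 at the higher end.

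Cell types that could supply these transcripts were checked with marker lists. In the cells that build the tubule wall, 7 of 9 tested Sertoli cell markers and 7 of 8 markers of myoid and smooth muscle were lower in T, with medians of -0.053 and -0.099 and 0 at an unadjusted p under 0.05. The mean level of the Sertoli cell list ran from 0.62 to 0.85 in C and from 0.57 to 0.81 in T, and that of the myoid list from 0.87 to 1.25 in C and from 0.83 to 0.99 in T. The 1.25 was C replicate 1 alone, and on the other C arrays the myoid list ran from 0.87 to 0.96. The summed signals, in units of the 75th percentile, were 46.3 to 56.4 in C and 41.5 to 53.0 in T for Sertoli cells and 28.3 to 35.6 in C and 26.4 to 30.6 in T for myoid cells. On C replicate 3 the Sertoli cell list was the lowest of its group, at 0.62, and so were the lists of myoid cells (0.87), Leydig cells (0.77), nerve sheath (-3.39) and fat cells (-6.54). The other lists were lowest elsewhere in C, those of germ cells and duct epithelium on replicate 2 and that of skeletal muscle on replicate 5. The endothelial list stood at -2.21 on both C replicates 3 and 5. On T replicate 3, where all 5 genes were above their mean, the Sertoli cell list was at 0.73 and the myoid list at 0.96, both inside the range of the other T arrays. The duct epithelium list was there at its highest of all arrays (-1.89), as was the summed signal of the endothelial list (3.85). The skeletal muscle list was at its lowest (-4.47). The mean levels of the endothelial, germ cell, Leydig cell, nerve sheath and fat cell lists lay inside the range of the other T arrays. Of 7 endothelial markers 5 were higher (median 0.044), 2 of them, Pecam1 and Flt1, at an unadjusted p under 0.05, and the groups did not overlap for Pecam1. Pecam1 stood at 0.21 and Flt1 at 0.18, while Cdh5 and Eng were lower, at -0.21 and -0.057. The mean level of the list ran from -2.21 to -1.81 in C and from -2.05 to -1.92 in T. All 8 germ cell markers were higher (median 0.22, 3 of them at an unadjusted p under 0.05), with mean levels from -1.03 to -0.90 in C and from -0.99 to -0.60 in T. In both lists 0 markers passed an adjusted p of 0.05 (limma). Over all probes 41.5% were higher in T and 3.97% had an unadjusted p under 0.05. The groups did not overlap on 0.722% of the probes with a value on all arrays. Of 8 skeletal muscle markers 5 were higher, of 9 duct epithelium markers 8, of 6 Leydig cell markers 4, of 6 nerve sheath markers 3 and of 2 fat cell markers 0. Ckm and Myod1 of skeletal muscle and Cidec and Lep of fat cells were well above background on 0 arrays. Their part in the levels of the laminins and Nid2 was not tested.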

How the data were processed

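Each sample was hybridised to a one-colour array. Spot intensities in the deposited files were obtained by the authors with Agilent Feature Extraction 10.7.3.1 (per the file headers; 10.7 in the submitters' processing notes), which subtracts background within an array. A further table deposited by the authors holds log2 values centred per probe, with scaling between arrays unknown; its columns correlated at 0.998 to 0.999 with the scanner values, its filter on probes is unknown, the median of its columns was 0.029, 0.00014, -0.017, 0.020 and -0.0089 on the C arrays and 0.0032, 0.0037, -0.0026, -0.017 and -0.0023 on the T arrays, in the order of the replicates, and it served only as an alternative.

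The log2 processed signal minus the 75th percentile of each array over 58717 non-control spots was used. Flagged spots (494 to 745 per array) were left out, spots of a probe were averaged, and 21892 of 30367 probes, well above background on at least 5 of 10 arrays, were tested. Transcript accessions matched a RefSeq gene table (GRCr8) for 17998 probes. T minus C was fitted with limma 3.58.1 in R 4.3.3 (lmFit, eBayes, two-sided) over all probes, with Benjamini-Hochberg adjustment and a threshold of 0.05, and checked on simulated data. Correlations used 100000 permutations, two-sided. A gene with more than 1 probe was represented by that of highest mean. Alternatives covered scaling, background (normexp on the median spot signal), filters, weights, slide, father number and single arrays. Of 6 partner pairs planned for correlation, 2 could be measured, and all 10 pairs of measured genes were used instead. Members and lists were chosen with earlier results of these data known. From each list, genes with an unadjusted p under 0.05 were named, or else the gene with the smallest p, and of Lamc1 the 3 genes with the highest correlation; 1 gene this rule names is not reported here. Col4a4 was named as 1 of only 2 measured chains.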

Additional observations from a re-analysis of the deposited data

How the results depend on the processing

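Across 24 alternatives, 0 of the 5 member genes and 0 of all probes passed an adjusted p of 0.05, and 0 member probes had an unadjusted p under 0.05. Lama5 kept its direction in all 24, with differences from 0.046 to 0.25. So did Lamc1 and Nid2, each on its brighter probe or the mean of both, from 0.016 to 0.12 and from 0.00021 to 0.14. The 0.016 is the mean of both Lamc1 probes, and the lowest value of the 10-spot probe alone was 0.024. The 2-spot Lamc1 probe and the 1-spot Nid2 probe kept the opposite direction, below 0, in 19 of 23 alternatives each. Lama1, at -0.0032, turned positive with array weights (0.041), normexp (0.0026), quantile normalization (0.0017), slide as a block (0.0031), within slide 1 (0.0048) and slide 2 (0.0015), and with the authors' values (0.0081). Leaving out single arrays gave -0.070 to 0.076 for Lama1, -0.061 to 0.069 for Lamb2, -0.11 to 0.037 for the 2-spot Lamc1 probe and -0.094 to 0.023 for the 1-spot Nid2 probe. Lamb2, at 0.021, turned negative with normexp (-0.010), slide as a block (-0.0010) and within slide 2 (-0.12). The 2-spot Lamc1 probe turned to 0.059 within slide 1, the 1-spot Nid2 probe to 0.025 with array weights, and Sgcd to 0.042 within slide 1. The cause was not tested. The correlation of Lamc1 with Lama1 and with Lama5 kept its sign in both alternatives.

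The numbers 2, 4 and 6 of the father codes occur in both groups, and whether they pair the arrays is not settled here. Deviations of same-numbered arrays correlated at -0.51, 0.28 and 0.19, where the arrays of the -0.51 lay on different slides. Differently numbered arrays among these gave -0.48 to 0.37. The sign went with the slide, since pairs on 1 slide gave 0.19 to 0.37 and pairs across slides -0.51 to -0.13. Within a slide, same-numbered pairs gave 0.28 and 0.19 and differently numbered pairs 0.33 and 0.37, too few for the check to decide. With the number as a replicate block, on 6 arrays, the count of calls was 0 as without it, and Lama1 stood at 0.046, Lamb2 at -0.045, the 2-spot Lamc1 probe at 0.089 and the 1-spot Nid2 probe at 0.029. The number of arrays per group and the slide limit these values. The difference of Lama5 between the slides did not pass the adjusted test (limma, adjusted p = 0.112).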

Other observations

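Kdr, a receptor of vascular endothelial growth factor on endothelial cells, ranked at position 7 of 11554 genes by its correlation with the 10-spot Lamc1 probe over the 10 arrays (r = 0.87, rho = 0.90). The r was 0.72 without the 2 arrays farthest from the median of Lamc1 and 0.87 after removal of slide and group means. Kdr was singled out after its value was seen, so the correlation carries no test. No other gene of the endothelial list was among the 10 highest. Lama5 and Nid2 had an r of 0.22 (permutation p = 0.544, adjusted over 10 pairs p = 0.68) and a rho of 0.10 (permutation p = 0.785), with 0.12 without the 2 arrays farthest from the median. After removal of slide and group means the r of this pair was 0.68.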
